A study of Homo sapiens with 2 samples.

Results

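Nucleotide synthesis was followed through 36 genes, chosen by function with earlier results of these data known. They encode the enzymes that build purines and pyrimidines, convert them to deoxynucleotides, salvage or degrade them, and supply folate-bound one-carbon units. All 36 have at least 1 probe set whose only gene symbol is theirs, 89 probe sets in all, out of 19775 genes named on the array. The cells were Eol1, a line from a human eosinophilic leukaemia whose growth is driven by the fusion kinase FIP1L1-PDGFRA. One culture received 100 nM Glivec for 4 h and the other none; Glivec is imatinib, a tyrosine kinase inhibitor that acts on PDGF receptors, KIT and ABL, and both cultures grew in RPMI with serum, and neither the labels nor the series text describe any other treatment. RNA of each culture was hybridised to 1 Affymetrix array, so there are 2 arrays and no replicates. No difference between conditions could be tested, no p-value is given, and having 2 arrays limits how precise any value can be.

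Cells make purines on a scaffold of phosphoribosyl pyrophosphate (PRPP), in a chain of reactions that ends at inosine monophosphate (IMP), from which adenine and guanine nucleotides branch off. Pyrimidines are assembled as a ring first and then joined to PRPP, giving UMP and later CTP. Folate carries the carbon units that both purine synthesis and thymidylate synthesis use, and salvage enzymes recover bases and nucleosides instead. Leukaemic cells run these routes at a high rate, several of the enzymes are drug targets, and many of their genes are textbook targets of the transcription factor MYC.

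Values are MAS5 signals on a linear scale. Signals under 13.7, the median of all signals, were raised to that floor before ratios were taken. A gene was represented by its brightest probe set, here called its main probe set. Probe sets of a cross-hybridising type (_x_at) were used for this only where no other existed. Ratios are Glivec over untreated, on the log2 scale unless a fold is named. Genes above the floor on 1 or both arrays were taken as measured, 12705 in all, and their median log2 ratio was 0.10. Where a gene had several probe sets, their spread was the only measure of error at hand. The pooled SD of log2 ratios was 0.41 over the 21 genes of the set that had several probe sets above the floor on both arrays, against 0.33 over 5603 such genes on the whole array. It leaves out all variation between cultures.

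The labelled cell type and treatment were checked first. Of 12 myeloid and eosinophil markers with a probe set, 9 were above the floor on both arrays. So were 10975 of the 19775 genes named on the array. PRG2, the eosinophil major basic protein gene, was at 6302 with Glivec and 4744 without. IL5RA was below the floor on both, and CLC and EPX (27.2 with Glivec, 12.6 without) were above it on 1 array only. The summed signals of the 12 markers were 17653 with Glivec and 13072 without, carried mainly by PRG2, PRTN3, AZU1 and RNASE2. GATA2 (94.4 against 208), CSF2RB (391 against 693) and CLC (13.2 against 19.4) were lower with Glivec. Of the markers of other cells, 0 of 4 for T cells, 1 of 3 for B cells, 0 of 2 for erythroid cells and 1 of 5 for fibroblasts and epithelium were above the floor on both arrays. For the treatment, 4 genes were picked as lying downstream of the fusion kinase, which was not shown here. With Glivec they were lower, MYC by 6.78-fold, PIM1 by 8.06-fold, CISH by 6.80-fold and DUSP6 by 6.05-fold. Picked genes on 1 array per group do not test the treatment. The 18 hybridisation spike-in probe sets were brighter on the Glivec array by a median log2 of 0.74, and with the arrays scaled to them the all-gene median was -0.59 in place of 0.10. All differences are therefore relative to the bulk of genes.

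Across the set, most genes differed little, and the larger differences were toward lower signals with Glivec. In RNA of whole cultures, fewer cells with a transcript and less of it per cell cannot be told apart. Of 35 measured genes, 2 were at least 2-fold lower with Glivec (5.71%), against 2.63% of all measured genes, and 0 were at least 2-fold higher, against 3.13%. The 2 were PPAT and CTPS1. At 1.5-fold, 6 genes were lower (17.1%), against 8.33% of all genes: PPAT, CTPS1, DHODH, PNP, UMPS and GART. TK2 alone was at least 1.5-fold higher (2.86%), against 13.5%. The other 28 lay within 1.5-fold (80.0%, against 78.2% of all genes). The median log2 ratio was -0.10, or 0.20 below that of all measured genes, and 25 of the 35 lay below the median of all genes. The median of the set was negative under all 9 alternative settings, from -0.045 with only probe sets of the plain _at type to -0.86 with spike-in scaling. Spike-in scaling put the median of all genes at -0.59. Below the all-gene median of the same setting, it lay by 0.09 with loess to 0.28 with spike-in scaling. Members below that median were 21 of 34 with quantile normalization and 22 of 35 with loess.

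**Figure D1:**
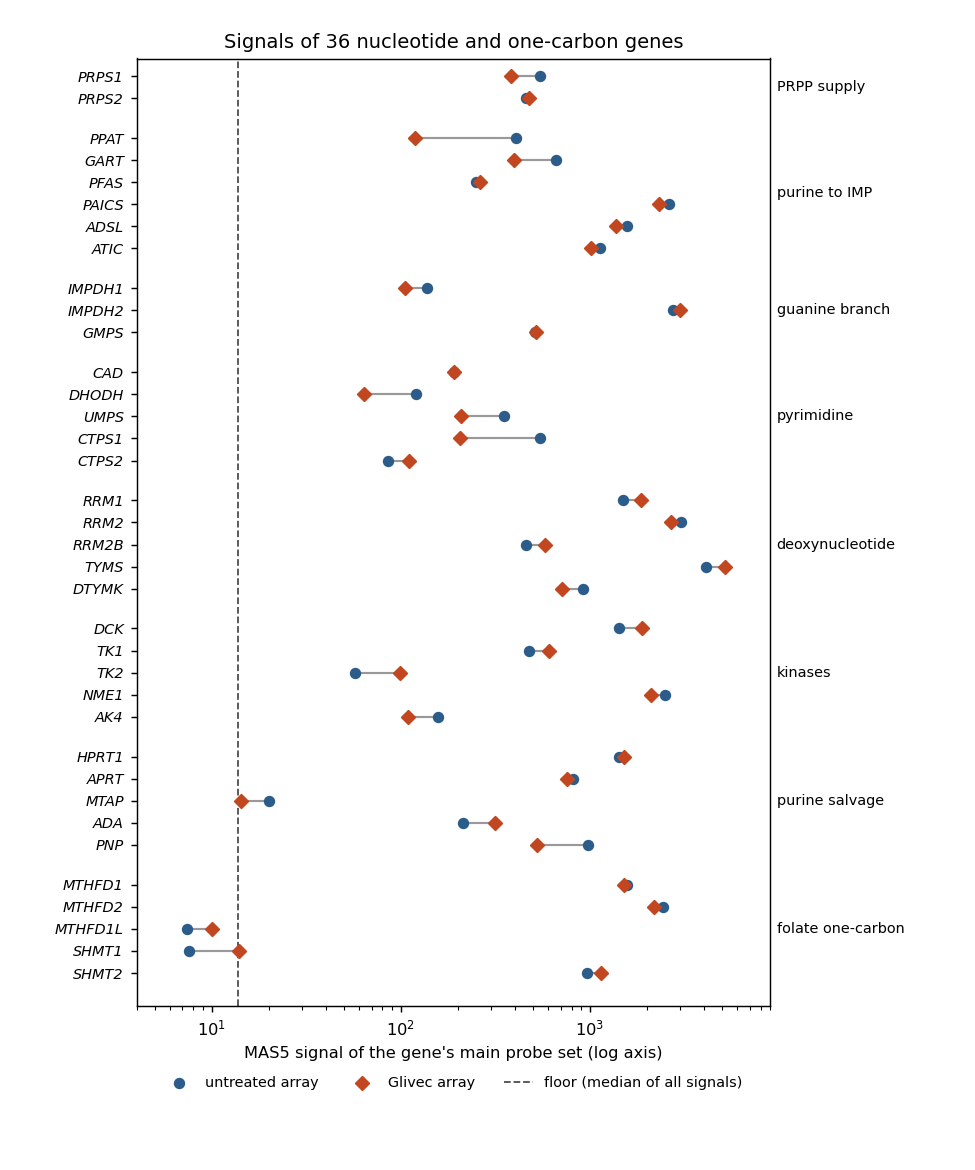
MAS5 signal of the main probe set of each of the 36 genes on the untreated array (circles) and the Glivec array (diamonds), on a log axis, grouped by role, 1 array per group; the dashed line is the floor of 13.7. The widest gaps with the Glivec array lower are at PPAT (119 against 405) and CTPS1 (206 against 544), and MTHFD1L lies below the floor on both arrays.

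The start regions of the genes with the lowest ratios are shown because these genes differed most. That of PAICS is shown because it lies head to head with PPAT while its main probe set was at -0.18. Each sequence is a RefSeq promoter window of GRCh38.p14, from 250 bases before to 50 bases after an annotated start, read 5′ to 3′ on the gene's strand. Capitals mark CACGTG, the E-box bound by MYC and related factors, or CACGCG, a variant of it, searched on both strands (CACGCG then reads CGCGTG). The windows lie at chr4:56435566-56435865 (minus strand, PPAT), chr4:56435502-56435801 (plus strand, PAICS), chr16:72008494-72008793 (plus strand, DHODH), chr1:40979446-40979745 (plus strand, the outer of 2 CTPS1 windows) and chr14:20469156-20469455 (plus strand, PNP).
PPAT: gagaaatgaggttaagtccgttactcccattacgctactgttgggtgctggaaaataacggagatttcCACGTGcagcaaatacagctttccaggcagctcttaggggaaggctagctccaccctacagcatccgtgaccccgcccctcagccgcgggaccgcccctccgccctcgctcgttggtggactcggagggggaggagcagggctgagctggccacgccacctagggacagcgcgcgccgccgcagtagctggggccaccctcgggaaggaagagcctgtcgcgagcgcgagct
PAICS: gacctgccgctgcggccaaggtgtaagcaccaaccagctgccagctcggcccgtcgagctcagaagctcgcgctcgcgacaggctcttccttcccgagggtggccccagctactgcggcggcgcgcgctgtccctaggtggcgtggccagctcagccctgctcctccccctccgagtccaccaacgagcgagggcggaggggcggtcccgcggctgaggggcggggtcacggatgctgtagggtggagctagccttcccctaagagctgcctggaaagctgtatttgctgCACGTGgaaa
DHODH: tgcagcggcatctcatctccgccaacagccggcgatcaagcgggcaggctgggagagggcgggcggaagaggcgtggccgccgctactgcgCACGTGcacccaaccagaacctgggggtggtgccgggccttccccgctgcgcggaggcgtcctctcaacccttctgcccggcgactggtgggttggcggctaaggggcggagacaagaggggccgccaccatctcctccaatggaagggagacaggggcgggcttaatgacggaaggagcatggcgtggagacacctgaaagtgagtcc
CTPS1: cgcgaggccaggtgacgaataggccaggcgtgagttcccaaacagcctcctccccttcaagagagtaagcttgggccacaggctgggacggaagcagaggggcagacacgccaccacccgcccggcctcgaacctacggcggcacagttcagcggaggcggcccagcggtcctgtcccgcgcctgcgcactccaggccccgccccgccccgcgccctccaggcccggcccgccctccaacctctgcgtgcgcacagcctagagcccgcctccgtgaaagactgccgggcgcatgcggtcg
PNP: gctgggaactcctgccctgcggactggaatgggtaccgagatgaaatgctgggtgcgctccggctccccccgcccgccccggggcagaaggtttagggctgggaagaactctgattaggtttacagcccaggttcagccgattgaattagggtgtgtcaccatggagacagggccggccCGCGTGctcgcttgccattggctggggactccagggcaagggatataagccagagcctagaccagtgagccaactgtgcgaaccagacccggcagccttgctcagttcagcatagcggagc

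The PPAT and PAICS starts lie 137 bases apart on opposite strands and their windows overlap by 236 bases. The CACGTG of both windows is the same site, at chr4:56435792-56435797. PPAT was 3.40-fold lower with Glivec and PAICS was at -0.18. DHODH, at -0.93, has a CACGTG 159 bases before its start, PNP, at -0.90, a CACGCG as read on the other strand, and the CTPS1 window neither. Of the 36 genes, 32 matched the promoter table. A CACGTG was found in 12 of their 46 windows (26.1%), against 7.26% of 35116 windows of all genes. It was in at least 1 window of 9 of the 32 genes (28.1%), against 8.77% of all genes. The site shared by PPAT and PAICS counts under both genes, and genes with several annotated starts give several windows (AK4 4, PAICS 3). The counts are therefore not of independent sites. For CACGCG it was 6 of 46 windows (13.0%), against 11.4%, and 6 of 32 genes (18.75%), against 13.5%. The 8 measured genes with a CACGTG had log2 ratios from -1.77 to 0.41 with a median of -0.21, and the 23 measured genes without one had ratios from -1.40 to 0.79 with a median of -0.01. The ranges overlap from -1.40 to 0.41. DCK, at 0.41, and MTHFD1, at -0.05, hold the same letters as PPAT. A match describes these letters only.

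PRPP is supplied by the synthetases PRPS1 and PRPS2. PRPS1 had signals of 383 with Glivec and 545 without, a log2 ratio of -0.51, and its other probe set was at -0.65. PRPS2 had signals of 476 and 460, a ratio of 0.05, but its second probe set was at -0.53 (234 against 338). The 2 genes are thus separated by 0.56 at their main probe sets, a gap that the second PRPS2 probe set does not show.

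The de novo purine pathway was lowest at its entry. PPAT encodes the amidotransferase of the committed step, and its signal was 119 with Glivec against 405 without, 3.40-fold lower. It ranked 63rd from the lowest of 12705 measured genes. A second probe set gave 98.7 against 342, a log2 ratio of -1.79. The third, a dim one, gave 31.9 against 24.7, a ratio of 0.37 in the other direction, so the lower value rests on the pair of brighter probe sets, whose suffix (_s_at) marks probes that match several transcripts.

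GART, an enzyme that catalyses several steps of the pathway, was next, at 395 against 664, or 1.68-fold lower. All 5 of its probe sets with both arrays above the floor were negative, from -0.75 to -0.50, and 2 dimmer ones gave bounds of -0.57 and 0.16. The enzymes after it differed less. PFAS was at 262 against 250, a log2 ratio of 0.06. PAICS had signals of 2330 and 2633, a ratio of -0.18, with other probe sets at -0.37 and -0.51. ADSL, which acts in the IMP chain and again on the way to AMP, was at 1378 against 1580 (-0.20), and its other probe set was at 0.19. ATIC, which closes the IMP ring, was at 1019 against 1132 (-0.15). All 6 genes of the chain lay below the median of all genes, PFAS by a margin that turned in 3 of 8 alternatives, and PPAT alone was past 2-fold.

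On the guanine branch, IMPDH1 and IMPDH2 encode the enzyme that commits IMP to guanine nucleotides. IMPDH1 was at 105 with Glivec and 138 without, a log2 ratio of -0.39. The more abundant form in dividing cells, IMPDH2, was at 3016 and 2754, a ratio of 0.13 that became -0.61 with spike-in scaling. GMPS, which makes GMP, had signals of 518 and 513, and its 3 probe sets lay between 0.01 and 0.25.

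Pyrimidine synthesis had the lowest median of the groups by role, -0.77 over 5 genes. CAD, whose product carries out the opening steps, did not share in it: its signals were 191 and 192, a log2 ratio of -0.01. DHODH, the mitochondrial enzyme that passes electrons to the respiratory chain, was at 63.6 with Glivec and 121 without, 1.90-fold lower, with a second probe set at -0.56 and a bound of -0.96 at another. UMPS, which makes UMP, was at 207 against 353, 1.70-fold lower. A brighter _x_at probe set (318 against 515) was at -0.69, and another probe set was at -0.39.

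The CTP synthetases went opposite ways. CTPS1, the form on which lymphocyte expansion depends, had a signal of 206 with Glivec and 544 without, 2.64-fold lower, by its only probe set, and ranked 125th from the lowest. CTPS2 was at 110 and 85.8, a log2 ratio of 0.36, with its second probe set at 0.25. The CTPS1 ratio was 1.76 below that of CTPS2, the widest gap among the paralogue pairs compared (PRPS1 and PRPS2, IMPDH1 and IMPDH2, RRM2 and RRM2B, TK1 and TK2 were 0.42 to 0.56 apart). With spike-in scaling CTPS2 was at -0.38 and CTPS1 at -2.14, so the sign of CTPS2 depends on the scaling; such a scaling moves all genes above the floor alike and leaves a gap between them as it was.

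**Figure D2:**
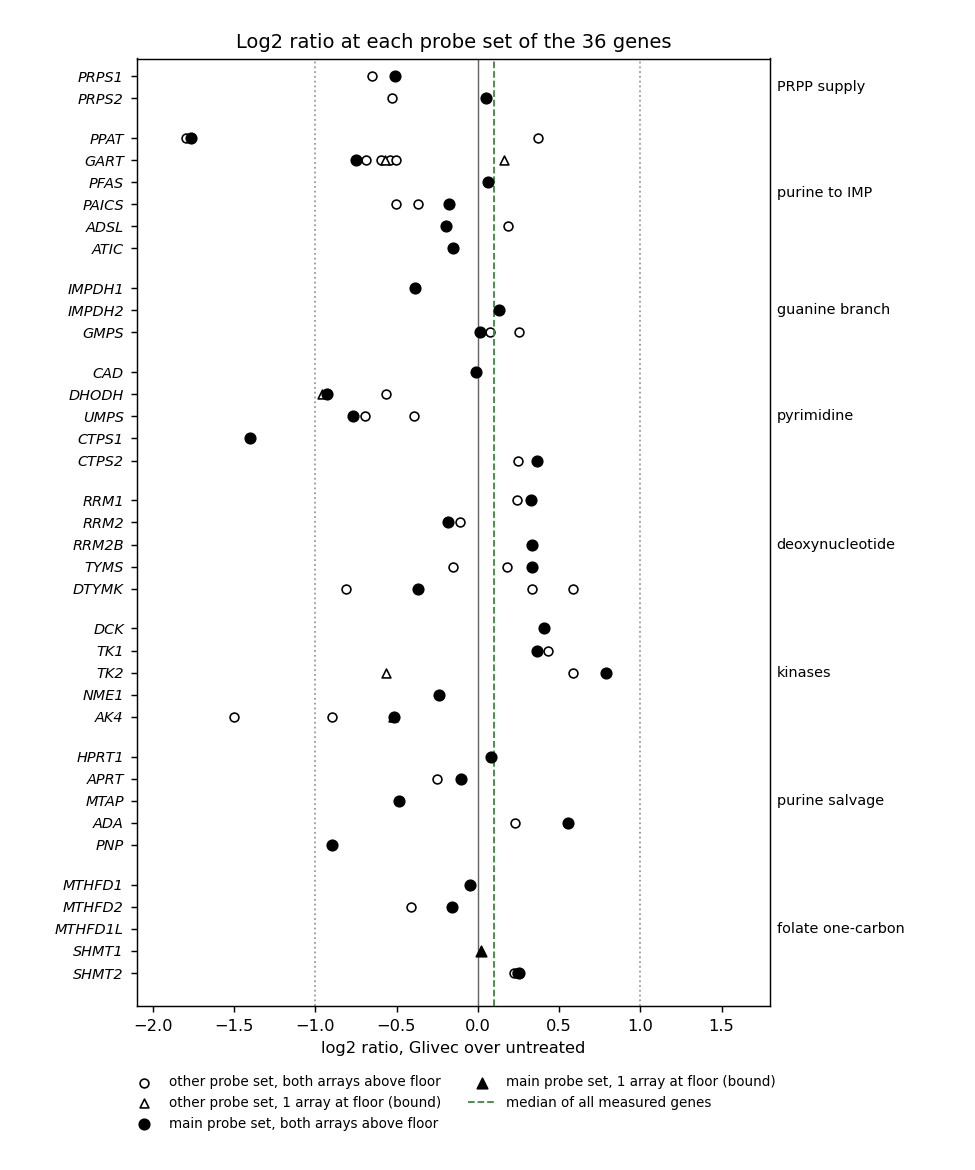
Log2 ratio (Glivec over untreated) at each probe set of the 36 genes with at least 1 array above the floor; filled symbols are main probe sets, open ones the others, triangles are bounds, dotted lines mark 2-fold and the dashed line the median of all genes (0.10). The brighter PPAT probe sets sit near -1.8 and the third at 0.37, while the GART probe sets with both arrays above the floor cluster between -0.75 and -0.50.

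Among the deoxynucleotide enzymes, 3 of 5 lay above 0 and RRM2 and DTYMK below. RRM1, the large subunit of ribonucleotide reductase, was at 1871 with Glivec and 1489 without (0.33), with the other probe set at 0.24. RRM2, the small subunit made in S phase, was at 2674 and 3038 (-0.18), and at -0.11 by its second probe set. RRM2B, the small subunit induced by p53, was at 576 and 458 (0.33). TYMS, which makes thymidylate with folate-bound carbon and is the target of fluorouracil, had the brightest signals of all the set, 5212 and 4133 (0.33), or 0.18 by its next probe set and -0.15 by a dim one. DTYMK, which phosphorylates thymidylate, was at 711 and 919 (-0.37), and its other measured probe sets were at -0.81, 0.59 and 0.33, a spread wider than the difference. The group had a median of 0.33, with 3 of 5 genes above the median of all genes. The positive ratios of RRM1, RRM2B and TYMS turned to between -0.41 and -0.40 with spike-in scaling. TYMS also dropped to 0.08 with quantile normalization and with loess, and to 0.12 with the mean over its probe sets. RRM1 and RRM2B stayed between 0.28 and 0.36 under those settings.

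Among the kinases, those for nucleoside salvage were above the median of all genes. DCK, the deoxycytidine kinase that activates cytarabine, was at 1886 with Glivec and 1422 without (0.41). TK1, the cytosolic thymidine kinase, was at 610 and 474 (0.36), and at 0.43 by its second probe set. TK2, the mitochondrial thymidine kinase, was dim at 99.3 and 57.5, or 1.73-fold higher, with a second probe set at 0.59 and a bound of -0.57 at another. With spike-in scaling DCK and TK1 turned to -0.33 and -0.37. NME1, a nucleoside diphosphate kinase, had signals of 2108 and 2490 (-0.24).

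AK4, an adenylate kinase of mitochondria, depended on the probe set. Its brightest gave 110 with Glivec and 157 without (-0.51), the next by signal gave 30.2 and 85.5 (-1.50), another 29.5 and 55.0 (-0.90), and the fourth a bound of -0.52. All 4 were lower with Glivec. The sizes at the 3 with both arrays above the floor differed by 0.99 from the smallest to the largest. That of the fourth is known only as a bound.

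In purine salvage and breakdown, 1 gene was past 1.5-fold. PNP, the purine nucleoside phosphorylase that frees hypoxanthine and guanine, was at 524 with Glivec and 976 without, 1.86-fold lower, by its only probe set. ADA, the deaminase that precedes it for adenosine, went the other way at 313 and 213 (0.56), with the second probe set at 0.23; spike-in scaling turned it to -0.18. The base salvage enzymes were close to level, HPRT1 at 1508 and 1422 (0.08) and APRT at 756 and 811 (-0.10, and -0.25 by another probe set). MTAP, which salvages methylthioadenosine from polyamine synthesis, was near the floor: 5 of its 6 probe sets were below it on both arrays, and the sixth had 14.3 with Glivec and 19.98 without.

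Of the folate enzymes, 4 of 5 were measured and 0 passed 1.5-fold in either direction, as 21.8% of all genes did. MTHFD1, the cytosolic enzyme, was at 1518 with Glivec and 1566 without (-0.05), and MTHFD2, its mitochondrial counterpart, at 2188 and 2444 (-0.16, and -0.41 by another probe set). SHMT2, the mitochondrial enzyme that takes a carbon unit from serine, was at 1145 and 962, and its 3 probe sets lay between 0.22 and 0.25, or at -0.49 for the main one with spike-in scaling. For the cytosolic SHMT1 the main probe set read 13.9 and 7.57, a bound near 0 that became 0.73 with the floor at the 40th percentile and 0.83 with the pseudocount, and both MTHFD1L probe sets were below the floor on both arrays. For each of these genes, 2 further probe sets also list other gene symbols and were not used, so low signals here do not show that either gene was silent.

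**Figure D3:**
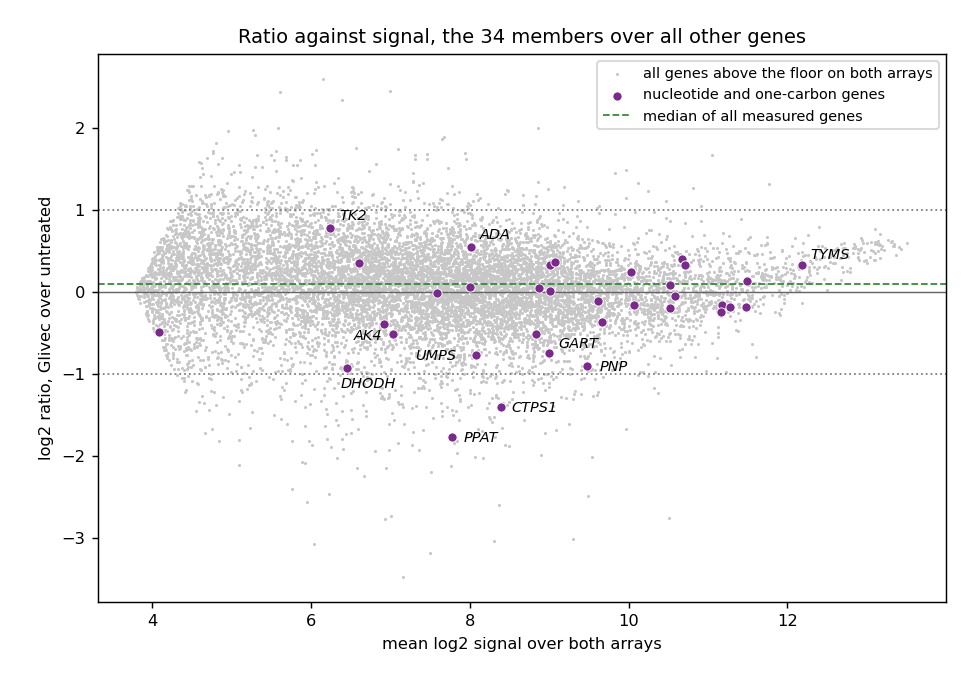
Log2 ratio against mean log2 signal for genes above the floor on both arrays (grey), with 34 of the 36 genes in purple; dotted lines mark 2-fold and the dashed line the median of all genes (0.10). PPAT and CTPS1 lie below the lower dotted line and TK2, at 0.79, is the highest of the 34.

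The lowest and highest ratios were followed through the processing alternatives. CTPS1 was past 2-fold in 9 of 9 alternatives, from -2.14 to -1.38, and PPAT in 8 of 9, from -2.50 to -1.06, the latter with the mean over its probe sets. The exception used only plain _at probe sets, where PPAT rests on its dim probe set and was at 0.37. GART, DHODH, UMPS and PNP were below the median of all genes in every alternative that gave a value. DHODH rose to -0.47 with the floor at the 75th percentile, because its Glivec signal lies under that floor. TK2 stayed above the median of all genes in each, from 0.14 to 0.70 above it; with the floor at the 75th percentile it was at 0.19. AK4, within 2-fold at its brightest probe set, was at -1.50 with only plain _at probe sets.

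**Figure D4:**
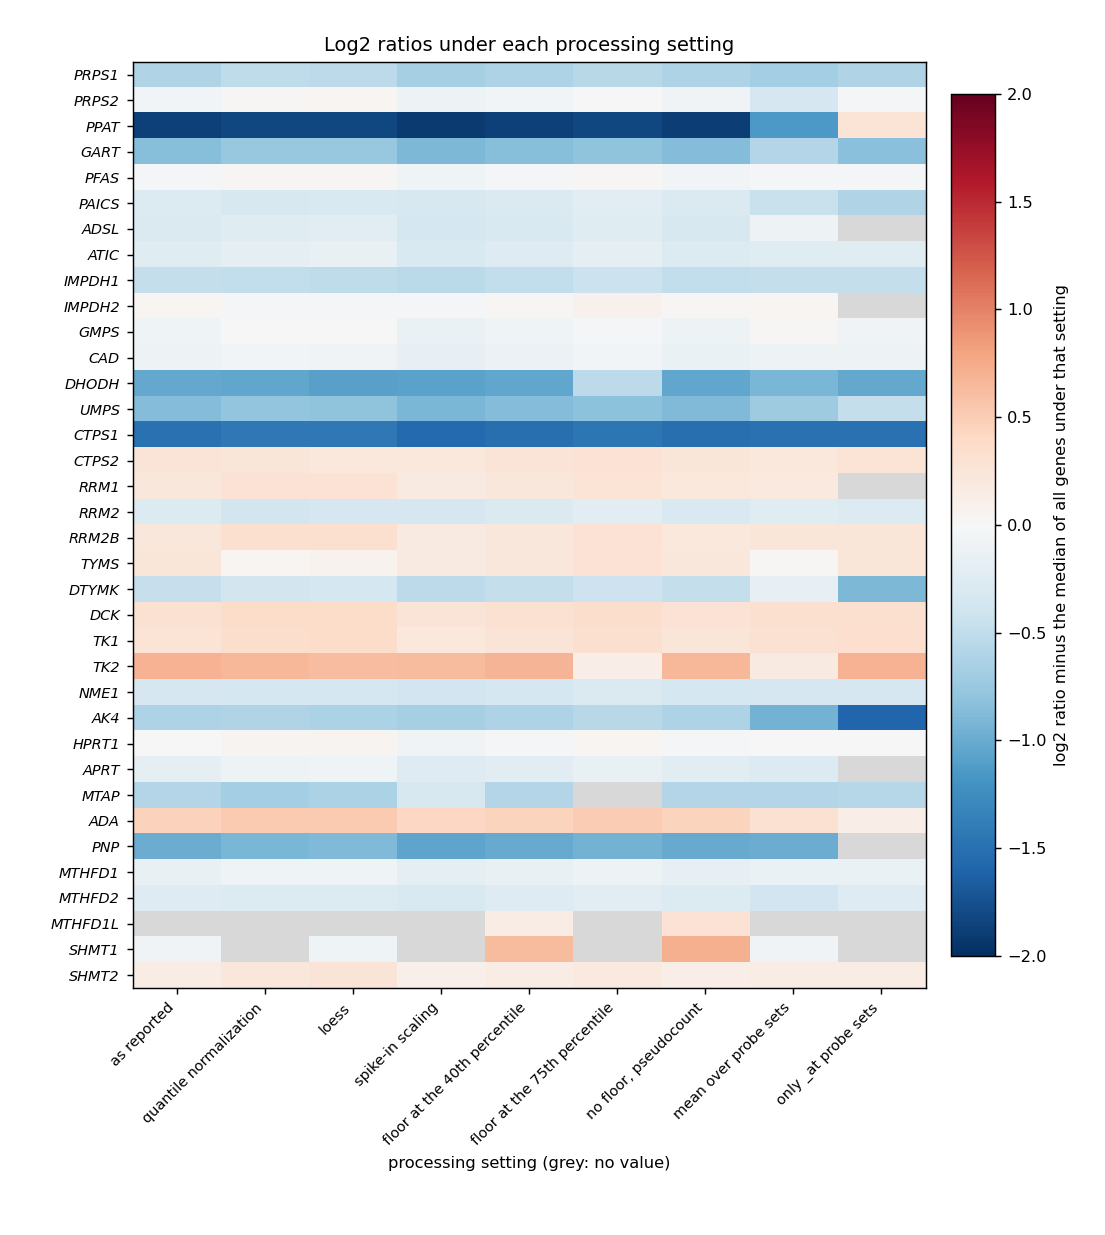
Log2 ratio of each gene minus the median of all genes under the same setting (colour, blue lower and red higher with Glivec), for the reported setting and 8 alternatives; median centring is left out because it equals the reported column by construction. CTPS1 is between -1.55 and -1.42 in the 8 alternatives, and PPAT is blue in 7 of them and pale red at 0.28 with only _at probe sets.

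A list of 80 further nucleotide and one-carbon genes was set beside the set. Like the set, these were chosen by function with earlier results of these data known, so they give no independent check on it. Of these, 70 had a probe set of their own and 59 were measured, with a median log2 ratio of -0.01. Of the 59, 4 were at least 2-fold lower (6.78%, against 2.63% of all genes) and 1 was higher (1.69%, against 3.13%). UPP1, the uridine phosphorylase, was at the floor with Glivec (13.1 against 81.2), at least 5.92-fold lower. SLC25A32, the carrier that brings folate into mitochondria, was at 303 and 975, or 3.21-fold lower. MAT2A, which makes the methyl donor S-adenosylmethionine, was at 562 and 1791, 3.18-fold lower, and its second probe set was at -1.52. CMPK2, a mitochondrial UMP-CMP kinase that interferon induces, was at 220 and 571, 2.60-fold lower. The gene past 2-fold in the other direction was FTCD, a liver enzyme of histidine breakdown, at 35.3 and 10.8, at least 2.58-fold higher, while its 5 other probe sets were below the floor. The next highest ratios were AMT at 0.82, XDH at 0.69 and ADA2 at 0.62, from signals of 25.4 to 99.95. MYC, PIM1, CISH and DUSP6 were lower on the same array, and their part in any of these differences was not tested.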

How the data were processed

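Biotin-labelled cRNA of 1 Glivec-treated and 1 untreated culture was put on 1 Affymetrix array each, per the labels' protocols. The deposited values are signal intensities, 1 per probe set; the submitters' processing notes name MAS5, with no version in the sources used here. Both deposited arrays had a mean intensity of 100.014 when 2% of signals were trimmed at each end, so they had been scaled alike. Of the 54675 probe sets, 41091 were named by 1 symbol in the platform's annotation, 1801 listed several and were not used, and 62 were controls; Entrez identifiers matched 41037 to GRCh38.p14 names and changed 0 symbols.

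Signals were floored at the 50th percentile of non-control signals. A gene took its probe set of highest mean signal, with _x_at sets only where no other existed. All members are named; members past 2-fold, and the lowest and highest of each role, are given with all their probe sets above the floor; of the further genes, those past 2-fold and the 4 lowest and highest are named. Members and lists were chosen with earlier results of these data known. Alternatives were quantile normalization, loess (span 0.3), median centring, spike-in scaling, floors at the 40th and 75th percentile, a pseudocount of 0.646 without floor, averaging a gene's probe sets, using plain _at probe sets alone, and a 1.5-fold threshold. The calculation was tested on simulated data. Python 3.11.15, numpy 2.4.6, pandas 2.3.3, statsmodels 0.14.6 and matplotlib 3.10.9 were used.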

Additional observations from a re-analysis of the deposited data

How the results depend on the processing

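No paired analysis was possible because there are no replicates to pair, and none could be left out either. A value is said to have moved when it shifted by more than 0.41, the SD between probe sets, and a count when it shifted by over 1.5 times. With spike-in scaling, 10 members (29.4%) and 16 further pathway genes (27.6%) were at least 2-fold lower, beside 19.3% of all genes. Of the further genes 0 were higher, beside 0.335% of all genes. The median of the members was -0.86 and that of the further genes -0.75. At the 1.5-fold threshold 6 members were lower and 1 higher, and 9 further genes were lower and 4 higher, beside 8.33% and 13.5% of all genes. Further genes higher numbered 0 with the floor at the 75th percentile (beside 1.17% of all genes) and 4 with the pseudocount (beside 12.2%). PPAT reversed to 0.37 with only _at probe sets, which leaves its dimmest probe set alone. The other counts and medians of the set kept within these bounds. With loess and with median centring 3 members were lower (8.57% each, beside 3.59% and 3.53% of all genes). Under each remaining setting 2 were lower, beside 2.15% to 3.14% of all genes except with the pseudocount. These 2 were PPAT and CTPS1, but CTPS1 and AK4 with only _at probe sets. With the pseudocount the 2 were 5.56% of 36 members, below the 9.35% of all genes, so the order of the shares turned round there. PPAT moved to -1.06 with the mean over probe sets. Alternatives for the further genes and for members within 2-fold were chosen after seeing the data. Beyond what a setting changes by its own construction, the cause was not tested. Signals near the floor limit MTAP, with 1 array barely above it, SHMT1, whose ratio is a bound, and MTHFD1L, which has none.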

Other observations

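MTAP was the dimmest gene of the set with both arrays above the floor, and the protein-coding genes beside it in the RefSeq order of chromosome 9 were dim too. These neighbours were looked up after the MTAP values had been seen. Toward higher coordinates, CDKN2A, the cell cycle inhibitor gene, had 3 probe sets, of which 1 (a cross-hybridising type) read 22.6 with Glivec and 4.13 without and the others were below the floor. CDKN2B, its paralogue, had 2 probe sets with signals of at most 6.02 with Glivec and 3.15 without. DMRTA1 was at 1.88 and 0.602. Toward lower coordinates the interferon genes IFNE, IFNA1 and IFNA8, which are seldom expressed in resting cells, had signals of at most 6.17 with Glivec and 4.66 without. All these signals except that of the 1 CDKN2A probe set lay under the floor of 13.7 on both arrays. Gene copy number was not measured.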
